A study of Chlamydomonas reinhardtii with 24 samples.

Results

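The comparison described here asked which part of the transcript response to UV-B needs the photoreceptor UVR8 but persists when the regulator CO is missing. It was the difference between 2 UV-B effects in the unicellular green alga Chlamydomonas reinhardtii: the effect of UV-B in the co strain minus its effect in the uvr8 strain. It used 12 of the 24 libraries of the series, 3 in each of the groups co without UV-B, co with UV-B, uvr8 without UV-B and uvr8 with UV-B, chosen by their titles. The uvr8 strain is labelled LMJ.RY40202.156289 and the co strain LMJ.RY402.149321. Each mutant was 1 strain, the labels do not describe its lesion, and no complemented line was used here. The wild type CC5325 (WT) and the hy5 strain LMJ.RY402.194448, each also with and without UV-B, served as references. All groups were grown mixotrophically in an acetate medium (TAP), moved to a minimal medium (HSM) and kept in dim white light, at 20 µmol photons per square metre each second. The treated groups received UV-B of 0.2 mW per square centimetre for 1 h behind a 311 nm filter, and the untreated groups stood behind a 360 nm filter. The labels do not say whether libraries of 1 group came from separate cultures, so every p-value rests on the spread among these samples, which may be technical.

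UVR8 is a protein that senses UV-B directly: in Arabidopsis, UV-B turns its dimer into monomers, which bind the ubiquitin ligase complex of COP1 and SPA proteins and so stabilise transcription factors such as HY5. In Chlamydomonas, COP1 and SPA1 keep photoprotection genes low, and CO, a relative of the plant regulator CONSTANS, activates genes of the energy-dependent dissipation of excess light (qE). The proteins of qE are LHCSR1, LHCSR3 and PSBS, while FTSH proteases and assembly factors renew damaged photosystem II (PSII). Gene names were attached through locus identifiers known from the literature, since the count table holds identifiers only and the RefSeq table used here holds no symbols, so each locus is printed where its gene is first described.

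Libraries of co and uvr8 held 21449380 to 27686700 counts, and 13613 of 14621 genes were tested. Counts of libraries within a group differed beyond sampling noise (chi-square 34.2 to 126 per degree of freedom over 12 pairs), and each library was counted as a separate sample. Levels are given in CPM, the counts after scaling to equal library sizes, with the SD over 3 libraries, and are not corrected for gene length, so levels are compared between libraries and not between genes. A gene was called where the adjusted p of edgeR's quasi-likelihood F test was under 0.05.

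The labels were checked on the mutated genes. CO (Cre06.g278159) stood at 9.09, 6.84 and 7.37 CPM in the co libraries without UV-B and at 9.76, 9.97 and 9.99 CPM with it. In uvr8 the values were 666, 498 and 553 CPM without UV-B and 697, 562 and 723 CPM with it, so all 6 co libraries lay far below all 6 uvr8 libraries (log2 difference without UV-B -6.20 ± 0.21, adjusted p = 1.94e-13). UVR8 (Cre05.g230600) was still counted in uvr8, at 25.5, 23.6 and 24.6 CPM without UV-B against 39.6, 34.2 and 36.5 CPM in co. The log2 difference of co minus uvr8 was 0.58 ± 0.18 (adjusted p = 0.0535), so the transcript level checks the label of co and checks that of uvr8 only weakly.

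The UV-B effect was higher in co than in uvr8 for 77 genes and lower for none, which is 0.566% of the genes tested. Of the 77, 67 differed by 2-fold or more and 9 by 4-fold or more. At an unadjusted p under 0.05 there were 566 genes higher and 180 lower in co. These are 746 together, a total close to the 681 expected by chance over 13613 genes. DESeq2 called 132 higher and 3 lower. The last gene called had a log2 difference of 0.93 (adjusted p = 0.0494), and the next gene outside had 0.80 (adjusted p = 0.0512). Over the 77 genes the UV-B effect in co ran from 0.50 to 5.15, with a median of 1.27 on the log2 scale, and in uvr8 it ran from -2.87 to 0.25, with a median of -0.14. These values describe the libraries that chose the genes. Since RNA came from whole cultures, fewer responding cells and less RNA per cell cannot be told apart. In 70 of the 77, all 3 co libraries with UV-B lay above the other 9 libraries of the comparison, which held for 4.26% of all genes tested. The same 12 libraries chose the 77 genes, so a high share among them follows from that choice.

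**Figure D1:**
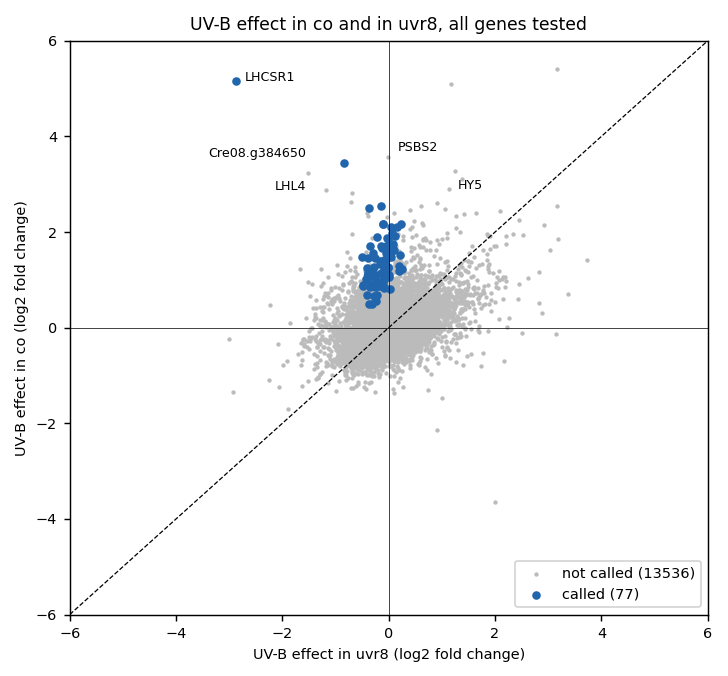
Each point is 1 of 13613 genes, with its log2 fold change with UV-B in uvr8 on the x axis and in co on the y axis; blue points are the 77 genes whose effects differed between the strains, and the dashed line marks equal effects. The blue points all lie above the dashed line, most of them near 0 on the x axis, with LHCSR1 farthest to the left.

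Within co, 234 genes were called with UV-B, 225 higher and 9 lower (1.72% of genes tested), and within uvr8 none was called. The count in co was 136 and 131 without replicate 1 and replicate 3 of co without UV-B, and 147 without replicate 3 of co with UV-B. In uvr8, edgeR's test left 1209 genes at an unadjusted p under 0.05, against 681 expected by chance, and DESeq2 called 14. The count of 0 changed with replicate 1 of uvr8 with UV-B: without this library 27 genes were called in uvr8. It stayed at 0 without any other 1 of the uvr8 libraries. Without the replicates numbered 1 of every group 1581 genes were called in uvr8, 872 higher and 709 lower. That fit called 771 genes in co, fewer than in uvr8 but above the 234 of the main fit, and 3081 in WT against 2215. It called 77 genes in co against uvr8, 76 higher and 1 lower, of which 30 were among the 77 of the main fit. Of the 77 genes of the main fit, 7 were called lower and 0 higher in uvr8 in the fit without number 1, where their median effect was -0.21 in uvr8 and 1.21 in co.

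The number of genes called was sensitive to single libraries. It fell to between 25 and 46 when any 1 of the 12 libraries was left out, except for 133 without replicate 1 of uvr8 with UV-B and 82 without replicate 2 of co with UV-B. The omissions named here and below leave out 1 library at a time. Of the 77 genes, 24 were called in all 12 omissions, 30 in 6 or more of them and 3 in none. Every one of the 77 differences kept its sign in all 12, but the same libraries chose the genes, so this is no separate support. With only the 12 libraries of co and uvr8 in the fit 29 genes were called, of which 27 were among the 77. Leaving out all replicates numbered 2, or all numbered 3, left 0 calls, with 413 and 213 genes at an unadjusted p under 0.05. Both counts were below the 681 expected by chance over the 13613 genes of the main fit.

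Of the 5 UV-B signalling genes, COP1 and SPA1 were called higher and none lower in co against uvr8. COP1 (Cre02.g085050), the ubiquitin ligase that UVR8 binds, stood at 8.34, 10.7 and 9.93 CPM in co without UV-B and at 31.3, 25.1 and 37.4 CPM with it. In uvr8 it stood at 9.06, 12.8 and 6.85 CPM without UV-B and at 7.55, 10.8 and 9.86 CPM with it. All 3 co libraries with UV-B lay above the other 9, while the uvr8 groups overlapped. The log2 UV-B effect was 1.69 ± 0.22 in co and -0.02 ± 0.21 in uvr8, a difference of 1.72 ± 0.30 (adjusted p = 0.00903). That call was lost with only the 12 libraries in the fit (adjusted p = 0.0883). SPA1 (Cre13.g602700), which works in 1 complex with COP1, rose in co from 15.8, 20.1 and 17.8 CPM to 47.9, 35.1 and 43.8 CPM. In uvr8 it went from 16.1, 13.8 and 13.1 CPM to 11.4, 9.35 and 11.6 CPM, so every uvr8 library with UV-B lay below every uvr8 library without it, a change that was not called (adjusted p = 0.548). The difference of the log2 effects was 1.65 ± 0.26 (adjusted p = 0.00499).

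HY5 (Cre06.g310500), a bZIP transcription factor, rose with UV-B in co from 6.54, 3.66 and 5.12 CPM to 33.9, 30.6 and 49.9 CPM (log2 change 2.90 ± 0.43, adjusted p = 0.000514). In uvr8 it had 5.76, 2.00 and 2.04 CPM without and 5.71, 3.20 and 12.4 CPM with UV-B, groups that overlapped around a log2 change of 1.13 ± 0.42. All co libraries with UV-B were above the other 9, but the difference of 1.77 ± 0.58 was not called (adjusted p = 0.401). UVR8 and CO themselves had differences of -0.33 and 0.14 on the log2 scale, neither of them called (adjusted p = 0.9999 for both).

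The rise in co was smaller than in WT for SPA1. In WT, SPA1 went from 17.3, 20.9 and 12.2 CPM to 101, 92.3 and 113 CPM, and the gain in mean CPM in co was 28.6% of the gain in WT (log2 effect in co minus WT -1.36 ± 0.26, adjusted p = 0.00598). COP1 gained in co 32.4% of its gain in WT, with a log2 difference of -1.17 ± 0.30 that fell just outside the threshold (adjusted p = 0.0505). It was called without replicate 3 of co with UV-B or replicate 2 of WT without UV-B (adjusted p = 0.0332 to 0.0400) and with another scaling, RLE (adjusted p = 0.0480). The comparison of co with WT shares the co libraries with that of co with uvr8.

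**Figure D2:**
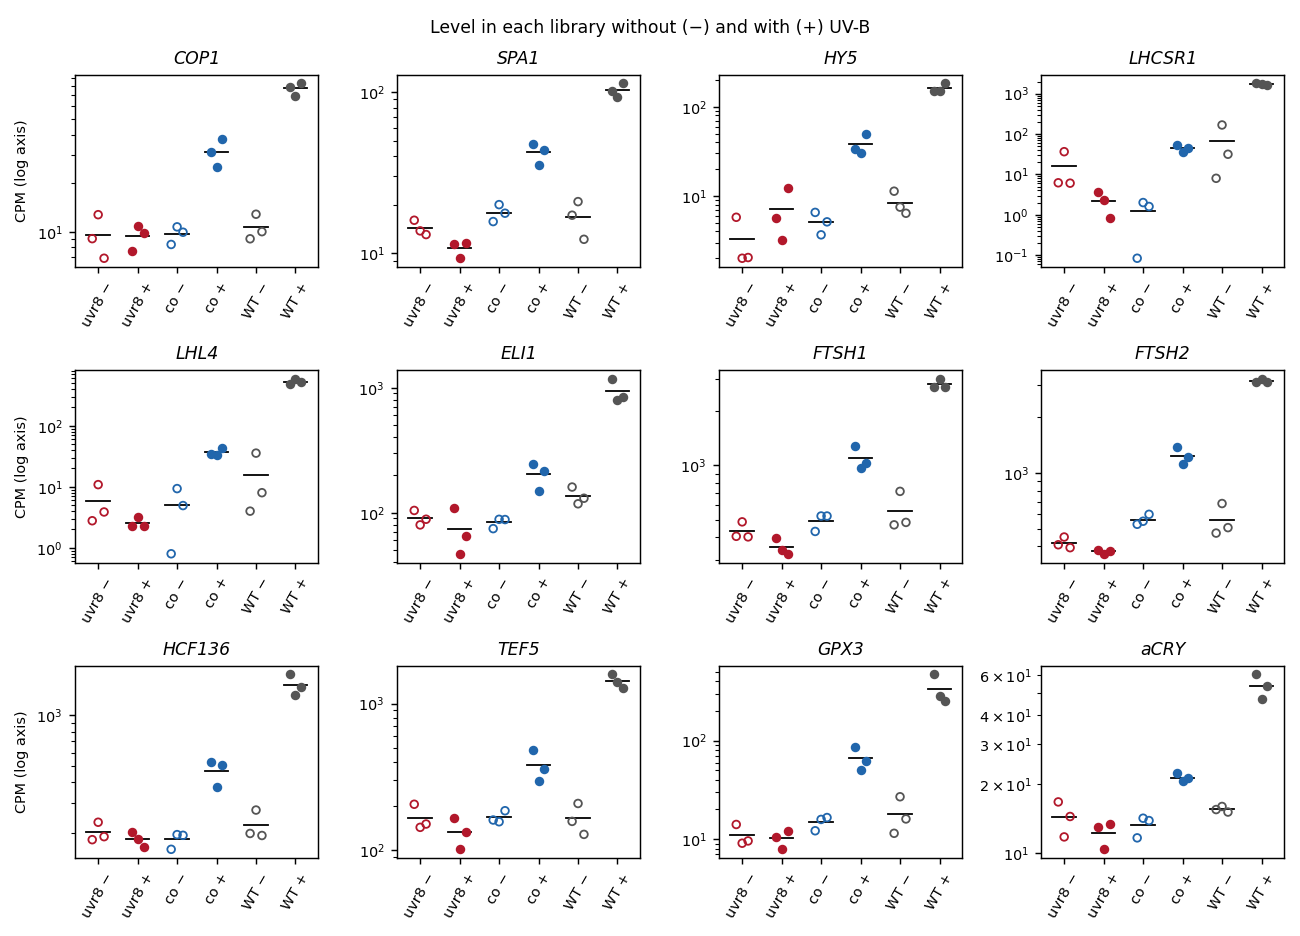
Level of 12 genes in each library, in CPM on log axes that differ between panels, for uvr8 (red), co (blue) and WT (grey) without UV-B (open) and with UV-B (filled); lines are group means of 3 libraries. The filled blue points stand above the red points in every panel except LHCSR1, where 1 uvr8 library without UV-B lies among them, and below the filled grey points in every panel.

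PSII assembly and repair was the list with the most calls: 5 of its 10 genes tested were higher in co against uvr8, against 0.566% of all genes tested, and none was lower, with a median log2 difference of 1.27 over the list against 0.01 over all genes tested. That list was written with results of these data known, and 6 of its 10 genes tested were raised by UV-B in WT. Of the genes raised 2-fold or more in WT, 8.96% were called in co against uvr8. FTSH1 (Cre12.g485800) and FTSH2 (Cre17.g720050) encode thylakoid proteases that remove damaged PSII core protein. FTSH1 stood at 430.4, 524 and 524 CPM in co without UV-B and 1277, 965 and 1035 CPM with it, and in uvr8 at 405, 486 and 402 CPM without and 395, 338 and 324 CPM with UV-B. FTSH2 stood at 527, 548 and 597 CPM and 1383, 1113 and 1222 CPM in co, and at 408, 449.8 and 394 CPM and 385, 365 and 379 CPM in uvr8, in the same order. For both genes the co libraries with UV-B lay above all others of the comparison. The differences of the log2 effects were 1.44 ± 0.24 (adjusted p = 0.00821) and 1.30 ± 0.20 (adjusted p = 0.00388), and both were called in all 12 omissions of a library.

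HCF136 (Cre06.g273700), an assembly factor of the PSII reaction centre, went in co from 159.8, 195 and 194 CPM to 524, 375 and 509.8 CPM. In uvr8 it had 182, 231 and 190.0 CPM without and 203, 185 and 164 CPM with UV-B, which overlapped. Its difference was 1.49 ± 0.25 (adjusted p = 0.00734) and held in all 12 omissions. RBD1 (Cre07.g315150), a rubredoxin needed for PSII accumulation, went in co from 82.8, 73.2 and 83.2 CPM to 214, 141 and 165 CPM, against 91.2, 68.5 and 68.3 CPM and 77.8, 58.4 and 73.0 CPM in uvr8. TEF5 (Cre09.g411200), a Rieske-type protein related to PSB33 of Arabidopsis, went in co from 160.0, 156 and 185 CPM to 479, 297 and 359 CPM, against 205, 143 and 150.2 CPM and 165, 101 and 132 CPM in uvr8. For both, the co libraries with UV-B stood apart from the rest. Their differences were 1.24 ± 0.25 (adjusted p = 0.0268; RBD1 was named after its values were seen) and 1.50 ± 0.30 (adjusted p = 0.0268).

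The calls of RBD1 and TEF5 depended on which libraries entered. RBD1 was lost without replicate 1, 2 or 3 of co without UV-B, 1 or 3 of co with UV-B, 1 of uvr8 without UV-B, or 2 or 3 of uvr8 with UV-B (adjusted p = 0.0582 to 0.0982). TEF5 was lost without replicate 1 or 2 of co without UV-B, 1 or 3 of co with UV-B, 1 of uvr8 without UV-B, or 2 or 3 of uvr8 with UV-B (adjusted p = 0.0582 to 0.0965). Both were also lost with only the 12 libraries in the fit (adjusted p = 0.194 and 0.187). All 5 genes of PSII renewal rose less in co than in WT: the gain in mean CPM was 26.5% of that in WT for FTSH1, 26.2% for FTSH2, 22.2% for HCF136, 20.1% for RBD1 and 16.9% for TEF5. The log2 effects in co minus WT ran from -1.93 for TEF5 to -1.19 for FTSH1, with adjusted p = 0.000719 to 0.0112, and that of FTSH1 was lost without replicate 3 of WT without UV-B (adjusted p = 0.0513).

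Of the 5 qE genes, 1 was called higher in co against uvr8. LHCSR1 (Cre08.g365900), an antenna-related protein that dissipates excess light energy, stood at 0.0838, 2.01 and 1.60 CPM in co without UV-B and at 53.4, 36.0 and 45.0 CPM with it. In uvr8 it stood at 6.20, 36.6 and 6.07 CPM without UV-B and at 3.60, 2.29 and 0.828 CPM with it. The co groups did not overlap, and in uvr8 every library with UV-B lay below every library without it. Replicate 2 of uvr8 without UV-B lay between the co libraries with UV-B. The log2 effect was 5.15 ± 1.19 in co and -2.87 ± 1.08 in uvr8, and the difference of 8.02 ± 1.60 was the largest of the 77 (adjusted p = 0.0268). A negative effect in uvr8, itself not called (adjusted p = 0.531), thus entered the difference beside the rise in co, and without UV-B the log2 level of co minus uvr8 was -3.69 ± 1.13 (adjusted p = 0.0572). The call was lost without replicate 1, 2 or 3 of co without UV-B, 1 or 3 of co with UV-B, 2 of uvr8 without UV-B, or 2 or 3 of uvr8 with UV-B (adjusted p = 0.0582 to 0.0982). In WT, LHCSR1 had 8.01, 168 and 31.6 CPM without and 1809.9, 1721 and 1637 CPM with UV-B. The gain in co was 2.64% of the gain in WT, while the log2 effects were 5.15 in co and 4.64 in WT, from mean levels without UV-B of 1.23 ± 1.02 and 69.1 ± 86.2 CPM.

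The other 4 qE genes had no call in co against uvr8. PSBS1 (Cre01.g016600) and PSBS2 (Cre01.g016750), near-identical copies whose reads the counting may split, encode a protein that triggers qE in plants. PSBS1 had 0.9998, 0.356 and 0.517 CPM in co with UV-B, against 0.450, 0.216 and 0.0720 CPM in uvr8 and 309, 393 and 363 CPM in WT. PSBS2 had 1.45, 1.66 and 2.205 CPM in co with UV-B, against 0.719, 0.346 and 0.216 CPM in uvr8 and 559, 571 and 607 CPM in WT. The co libraries with UV-B lay far below WT for both copies. PSBS2 was called higher with UV-B in co (3.58 ± 0.87, adjusted p = 0.0358), from 0.210, 0.130 and 0.102 CPM without it, and its 3 co libraries with UV-B lay above the other 9 of co and uvr8. The differences of co minus uvr8 were 2.18 ± 0.99 (adjusted p = 0.854) and 3.59 ± 1.27 (adjusted p = 0.514). The log2 effect of PSBS1 in co minus that in WT was -7.20 ± 0.97 (adjusted p = 0.000462). That of PSBS2 was -4.87 ± 1.36 and was not called (adjusted p = 0.0895), but was called in DESeq2 (adjusted p = 0.000412) and without replicate 2 of WT without UV-B (adjusted p = 0.00248). LHCSR3A (Cre08.g367500) and LHCSR3B (Cre08.g367400), likewise near-identical, had differences of 0.31 ± 0.71 and 0.27 ± 0.66 between co and uvr8 (adjusted p = 0.9999 for both).

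None of the 5 genes of antenna-like and early light-induced proteins (ELIPs) was called. All 5 differences were above 0, with a median of 2.72, which is the value of ELI4. ELI2 and ELI4 did not pass the count filter with only the 12 libraries in the fit, so that sign count and median are no support. LHL4 (Cre17.g740950), which the series title ties to the protection of PSII, stood at 0.796, 9.33 and 4.92 CPM in co without UV-B and at 34.9, 32.7 and 43.2 CPM with it. In uvr8 it had 2.77, 10.8 and 3.86 CPM without and 2.29, 3.16 and 2.23 CPM with UV-B. All 3 co libraries with UV-B lay above the other 9, with a spread of more than 10-fold among those without UV-B in co. The difference was 4.06 ± 1.18 (adjusted p = 0.234, and 0.0250 in DESeq2, which called it), and the gain in co was 6.23% of the gain in WT, where LHL4 reached 479, 589 and 517 CPM. Its log2 effect in co minus WT was -2.19 ± 1.12 and was not called (adjusted p = 0.591). ELI1 (Cre09.g393173) missed the threshold narrowly, with 244, 149 and 215 CPM in co with UV-B against 109, 46.9 and 64.8 CPM in uvr8 (1.58 ± 0.36, adjusted p = 0.0515). It was called without replicate 2 of co with UV-B or replicate 1 of uvr8 with UV-B (adjusted p = 0.00679 to 0.0313) and in DESeq2 (adjusted p = 0.00606), which also called ELI2 (0.0319). ELI2 (Cre07.g320400) reached 0.586, 0.119 and 0.413 CPM and ELI4 (Cre07.g320450) 0.310, 0.0396 and 0.413 CPM in co with UV-B, levels that rest on few counts, where WT had 212, 233 and 235 CPM and 190.1, 216 and 217 CPM. Their log2 effects in co minus WT, -7.30 and -6.53, were not called by edgeR (adjusted p = 0.0936 and 0.109). DESeq2 called both (adjusted p = 2.80e-08 and 1.97e-06). ELI5 (Cre14.g626750) had 9.30, 53.6 and 18.6 CPM without and 30.3, 62.7 and 34.1 CPM with UV-B in co, groups that overlapped.

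Libraries of co and of uvr8 without UV-B that carry the number 2 had the highest value of their group for LHCSR1, LHL4, ELI5, GPX5 and VTC2. The same held in WT and in hy5 without UV-B for LHCSR1, LHL4 and ELI5. LHCSR1 had 8.01, 168 and 31.6 CPM there in WT and 6.38, 186 and 72.6 CPM in hy5. Genes of plastid heat stress moved in replicate 2 of uvr8 without UV-B. HSP22E (Cre14.g617450), a small heat shock protein of the chloroplast, had 60.9, 558 and 282 CPM in uvr8 without UV-B, 171, 114 and 5.36 CPM in uvr8 with it, and 2.56, 9.46 and 9.08 CPM in co without it. HSP22F (Cre14.g617400), a close relative, had 61.2, 669 and 309.7 CPM in uvr8 without UV-B and 1.59, 10.01 and 5.94 CPM in co without it. Both were lower in co than in uvr8 without UV-B (adjusted p = 0.00283 and 0.00390), and replicate 2 of uvr8 was the highest. None of the 7 heat shock and chaperone genes was called in the difference of UV-B effects (median 0.54). The part of these shifts among libraries without UV-B in the differences given here was not tested.

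Without UV-B, 341 genes were higher and 495 lower in co than in uvr8 (6.14% of genes tested), and with UV-B 473 were higher and 216 lower (5.06%). The first count fell to between 204 and 371 without any 1 of the 6 libraries other than replicate 1 of uvr8, and the second to 441 without replicate 2 of uvr8 and 402 without replicate 3 of co. Over the 77 genes the log2 difference without UV-B ran from -3.69 for LHCSR1 to 1.12, with 38 of 77 above 0. With UV-B it was above 0 for all 77, from 0.21 to 4.33, with a median of 1.48. These comparisons share all their libraries with the difference of UV-B effects.

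**Figure D3:**
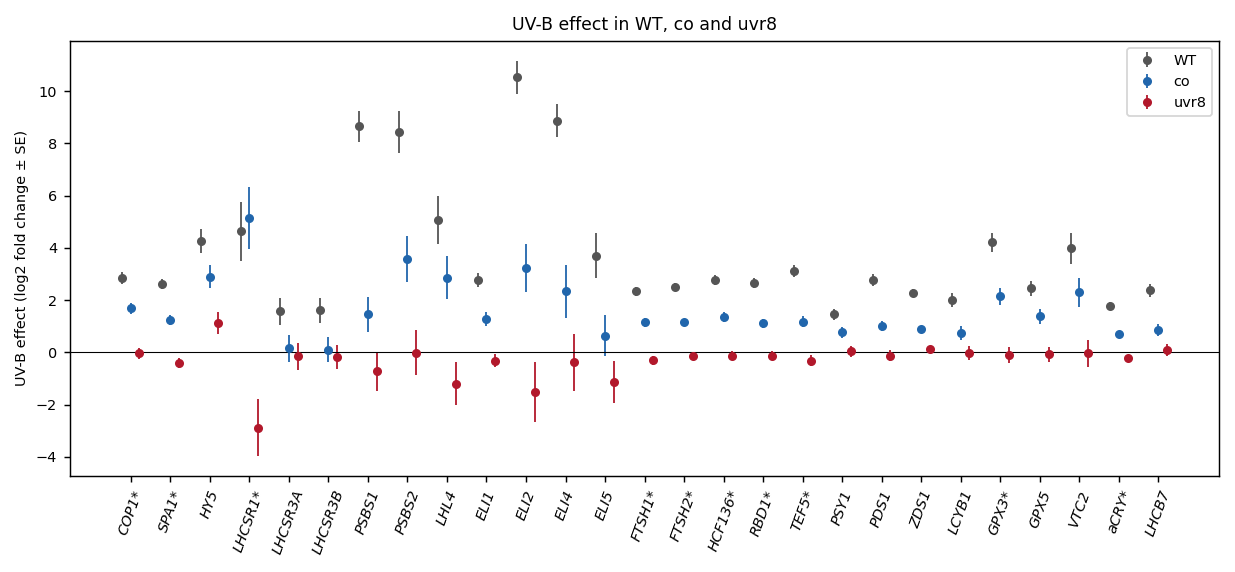
Log2 fold change with UV-B, with its SE, in WT (grey), co (blue) and uvr8 (red) for 27 named genes; an asterisk marks genes called in the difference between co and uvr8. For most genes the blue point lies between the grey point above and the red point near 0, while PSBS1, ELI2 and ELI4 show the widest gaps between grey and blue.

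Of 6 carotenoid genes, 2 rose with UV-B in co, and none was called in co against uvr8 (median 0.75). ZDS1 (Cre07.g314150) and PDS1 (Cre12.g509650) encode the desaturases of the path to lycopene. ZDS1 had 89.6, 84.8 and 91.0 CPM in co without UV-B and 177, 147 and 165 CPM with it, a rise (adjusted p = 0.00044). PDS1 had 108, 98.3 and 109 CPM without and 247, 162 and 228 CPM with UV-B (adjusted p = 0.00874). In both, the co libraries with UV-B lay above the other 9. The differences against uvr8 were 0.76 ± 0.18 (adjusted p = 0.0633) and 1.14 ± 0.29 (adjusted p = 0.112). Both were called without replicate 2 of co with UV-B or replicate 1 of uvr8 with UV-B (adjusted p = 0.0447 to 0.0497 for ZDS1, adjusted p = 0.0219 to 0.0440 for PDS1) and in DESeq2 (adjusted p = 0.00159 and 0.0238). PSY1 (Cre02.g095092), phytoene synthase, gained in co 49.1% of its gain in WT, from 92.9 ± 5.70 to 159.9 ± 40.6 CPM, with a difference of 0.74 ± 0.30 against uvr8 (adjusted p = 0.698). Its log2 effect in co minus WT was -0.68 and was not called (adjusted p = 0.446). LCYB1 (Cre04.g221550), lycopene beta-cyclase, had a difference of 0.76 ± 0.39 (adjusted p = 0.939).

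Among 14 genes of ascorbate and reactive oxygen defence, 1 was called and the median difference was 0.15. GPX3 (Cre03.g197750), of the glutathione peroxidase family, had 12.2, 15.8 and 16.6 CPM in co without UV-B and 85.7, 50.7 and 62.5 CPM with it, against 14.1, 9.08 and 9.58 CPM and 10.6, 7.87 and 12.02 CPM in uvr8. All co libraries with UV-B were above the other 9, and the difference was 2.26 ± 0.45 (adjusted p = 0.0268). It was lost without replicate 1, 2 or 3 of co without UV-B, 1 or 3 of co with UV-B, 1 of uvr8 without UV-B, or 2 of uvr8 with UV-B (adjusted p = 0.0555 to 0.0984). GPX5 (Cre10.g458450), of the same family, had 74.7, 162 and 92.1 CPM without and 251, 332 and 276 CPM with UV-B in co, which was called higher (adjusted p = 0.00902), with a difference against uvr8 of 1.46 ± 0.39 (adjusted p = 0.164) that was called without replicate 2 of co without UV-B (adjusted p = 0.0383) and in DESeq2 (adjusted p = 0.0476). VTC2 (Cre13.g588150), the committed enzyme of ascorbate synthesis, had 3.10, 13.4 and 5.70 CPM without and 26.6, 37.2 and 46.6 CPM with UV-B in co, and a difference of 2.35 ± 0.76 (adjusted p = 0.380). GPX3 gained in co 16.2% of its gain in WT, GPX5 47.2% and VTC2 17.6%. The log2 effects of GPX5 and VTC2 in co minus WT, -1.07 and -1.68, were not called (adjusted p = 0.285 and 0.465).

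Of 3 photoreceptor genes, aCRY (Cre06.g278251), the animal-like cryptochrome, was called. It had 11.7, 14.2 and 13.9 CPM in co without UV-B and 22.3, 20.5 and 21.2 CPM with it, against 16.7, 11.8 and 14.4 CPM and 13.0, 10.4 and 13.4 CPM in uvr8. The co libraries with UV-B lay above the rest by a small margin. The difference of 0.91 ± 0.20 (adjusted p = 0.0426) was lost without replicate 1, 2 or 3 of co without UV-B, 1, 2 or 3 of co with UV-B, 1 or 3 of uvr8 without UV-B, or 2 or 3 of uvr8 with UV-B (adjusted p = 0.0523 to 0.165). It was also lost with RLE scaling (adjusted p = 0.0644), without the count filter (adjusted p = 0.0645) and with only the 12 libraries (adjusted p = 0.321). The blue-light receptors CPH1 (Cre06.g295200) and PHOT1 (Cre03.g199000) had differences of 0.39 and -0.06, neither called.

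Several calls of UV-B within co also rested on single co libraries. That of LHCSR1 was lost without replicate 1, 2 or 3 of co without UV-B or replicate 1 or 3 of co with UV-B (adjusted p = 0.0559 to 0.134), that of GPX5 without replicate 1 or 3 of co without UV-B (adjusted p = 0.0800 to 0.0864) and that of PDS1 without replicate 2 of co without UV-B or replicate 1 of co with UV-B (adjusted p = 0.0563 to 0.0565). The call of PSBS2 was lost in each of the 6 omissions of a co library (adjusted p = 0.0587 to 0.215), that of VTC2 (2.31 ± 0.55, adjusted p = 0.0342) without replicate 1 or 3 of co without UV-B or replicate 2 or 3 of co with UV-B (adjusted p = 0.0697 to 0.221) and that of ELI1 (1.28 ± 0.26, adjusted p = 0.00870) without replicate 1 of co without UV-B or replicate 1 of co with UV-B (adjusted p = 0.0544 to 0.0680). The rise of aCRY in co was lost without replicate 1 of co without UV-B (adjusted p = 0.0800). With only the 12 libraries in the fit, the rises of PDS1, aCRY, VTC2 and ELI1 were lost as well (adjusted p = 0.09996, 0.09996, 0.0673 and 0.0681).

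The lists of the photosynthetic machinery had no call in co against uvr8. With 0.566% of all genes tested called, lists of 5 to 19 genes mostly hold none, so this absence is no trait of these lists. The same holds for the other lists without a call. Medians of the difference were -0.28 for 11 LHCII antenna genes, -0.17 for 9 LHCI antenna genes, -0.19 for 5 nuclear genes of PSII subunits, -0.07 for 8 of PSI subunits, -0.26 for 19 of chlorophyll biosynthesis, -0.10 for 17 of the CO2-concentrating mechanism and 0.08 for 13 of the Calvin cycle. LHCB7 (Cre02.g110750), an antenna relative, was the highest of the LHCII list, with 17.5, 17.2 and 13.6 CPM without and 24.3, 28.3 and 34.0 CPM with UV-B in co and a difference of 0.75 ± 0.32 (adjusted p = 0.797). LHCBM9 (Cre06.g284200), an LHCII protein known from nutrient stress, had 32.7, 20.6 and 26.2 CPM without and 42.0, 47.8 and 58.6 CPM with UV-B in uvr8, which did not overlap, and 50.3, 41.4 and 37.0 CPM and 43.8, 42.7 and 46.8 CPM in co, which did. Its difference of -0.85 ± 0.28 was not called (adjusted p = 0.418). The 4 cell cycle genes had a median of 0.40 and no call. Over all 16 lists, 10 of 141 genes tested were called, all of them higher in co, against 0.566% of all genes tested. The lists were written with results of these data known, so that share is a description.

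**Figure D4:**
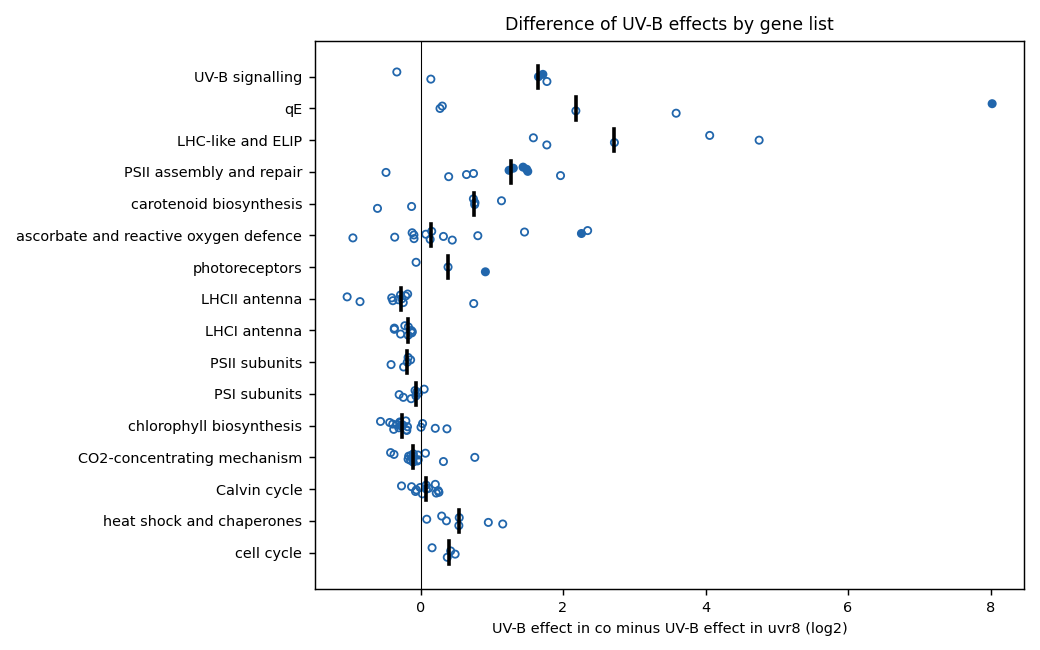
Each circle is 1 gene of a list, placed by its UV-B effect in co minus that in uvr8 (log2); filled circles were called and the vertical black bars are list medians. Filled circles occur in UV-B signalling, qE, PSII assembly and repair, ascorbate and reactive oxygen defence, and photoreceptors, while the medians of the antenna and photosystem lists lie between -0.28 and -0.07, with single LHCII genes from -1.03 to 0.75.

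The WT libraries, which do not enter the contrast of co with uvr8 but share its estimate of the spread, gave a list of genes that respond to UV-B. Of 1439 genes raised by UV-B in WT (10.6% of genes tested), 76 were called in co against uvr8. These are 98.7% of the 77 and 5.28% of that list, against 0.566% of all genes tested. Of the 776 genes lowered in WT, 0 were called, and of the 11398 not called in WT, 1 was. The count of 76 moved with that of the 77, between 25 and 125 when 1 library of co or uvr8 was left out, and between 51 and 80 when 1 of WT was. With separate fits, which share neither libraries nor the spread, 29 of 29 genes called in co against uvr8 were among 1033 raised in WT. Of these 1033, 1025 were among the 13541 genes tested in the fit of co and uvr8. The share called was 0.166% of 602 genes raised less than 2-fold in WT, 2.36% of 551 raised 2 to 4-fold, 20.5% of 195 raised 4 to 8-fold and 24.2% of 91 raised 8-fold or more. Larger effects are called more easily at the same error.

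The levels gave the same order without a threshold on co. Genes raised 2 to 4-fold in WT had a median log2 effect of 0.55 in co and 0.04 in uvr8, beside 1.39 in WT. Those raised 4 to 8-fold had 0.95 in co and 0.07 in uvr8, beside 2.40 in WT, and those raised 8-fold or more had 1.69 in co and 0.08 in uvr8, beside 3.68 in WT. The difference of co minus uvr8 was above 0 for 90 of the 91 genes raised 8-fold or more, against 50.6% of all genes tested. Genes lowered in WT had medians of -0.36 in co and -0.21 in uvr8, beside -0.997 in WT, and a median difference of co minus uvr8 of -0.16. The WT medians are from the libraries that chose the genes and can be too large for that reason.

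The hy5 libraries gave a second list, chosen by the UV-B contrast of hy5 in the same fit, with a shared estimate of the spread. Its 638 genes raised 2-fold or more by UV-B in hy5, of 13613 tested, had a median log2 effect of 1.78 in WT, 0.78 in co and 0.01 in uvr8. Of them, 74 (11.6%, and 96.1% of the 77) were called in co against uvr8, against 0.566% of all genes tested. A difference above 0 was held by 94.4% of them, against 50.6% of all genes tested. The median over all genes tested was 0.01 in WT, 0.01 in co and 0.01 in uvr8. Over the 77 genes, the UV-B effect in hy5 ran from 0.51 to 6.24, with a median of 2.66, and in WT from 0.08 to 5.71, with a median of 2.66. Within each replicate number, the median difference of co minus uvr8 over the genes raised 2-fold or more in WT was 0.629, 0.623 and 0.684. Replicate numbers are not known to pair the samples, so these 3 values are a description only.

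**Figure D5:**
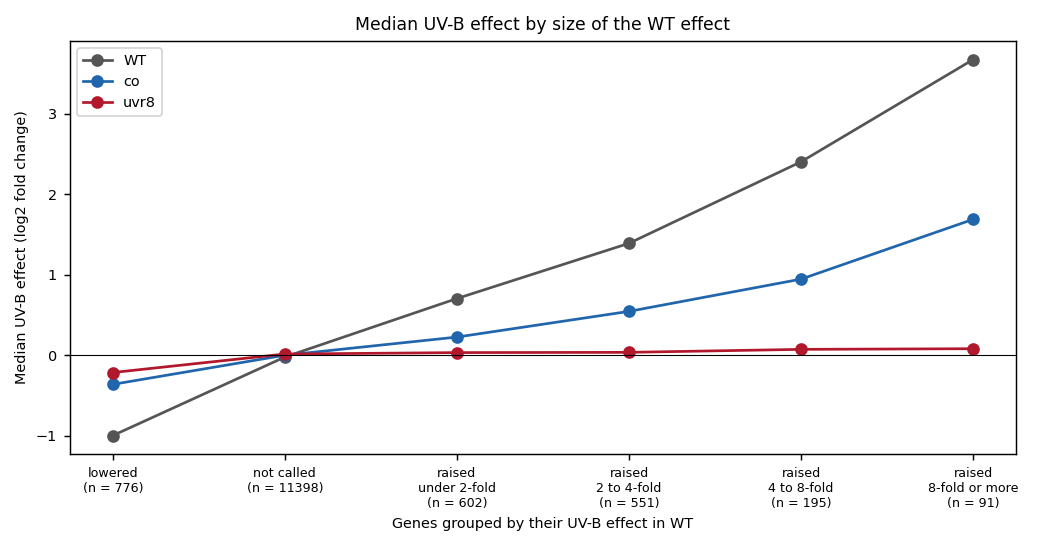
Median log2 fold change with UV-B in WT (grey), co (blue) and uvr8 (red) for genes grouped on the x axis by their UV-B effect in WT, with the number of genes in each group. The blue line rises with the grey one at a lower level, reaching 1.69 in the genes raised 8-fold or more, while the red line stays between -0.21 and 0.08.

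Most of the 77 genes, 67, stood in no list. Cre08.g384650 had the largest difference among them, with 1.05, 2.24 and 1.95 CPM in co without UV-B and 20.8, 14.6 and 22.5 CPM with it, against 1.98, 2.76 and 1.91 CPM and 2.11, 0.562 and 1.04 CPM in uvr8 (4.30 ± 0.89, adjusted p = 0.0322). Its call was lost without replicate 1, 2 or 3 of co without UV-B, 1 or 3 of co with UV-B, 1, 2 or 3 of uvr8 without UV-B, or 2 or 3 of uvr8 with UV-B (adjusted p = 0.0543 to 0.119). Cre17.g731050 had 7.12, 14.4 and 11.8 CPM and 71.0, 55.4 and 64.4 CPM in co, against 7.88, 10.001 and 6.50 CPM and 5.89, 6.27 and 6.59 CPM in uvr8 (2.89 ± 0.47, adjusted p = 0.00675), and was called in all 12 omissions. For both, the co libraries with UV-B stood clear of the other 9.

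The 1 gene of the 77 not called in WT was Cre10.g453050, named after its values were seen. It had 120.5, 115 and 121 CPM in co without UV-B and 165, 152 and 186 CPM with it, against 167, 198 and 179 CPM and 172, 136 and 128 CPM in uvr8. In co the libraries with UV-B were higher, a change that was not called (log2 change 0.50, adjusted p = 0.0555). In uvr8 they overlapped with those without, and the 2 strains differed without UV-B (log2 difference -0.61 ± 0.13, adjusted p = 0.00942). The difference of effects was 0.82 ± 0.18 (adjusted p = 0.0486), lost without replicate 1, 2 or 3 of co without UV-B, 1 or 3 of co with UV-B, 1, 2 or 3 of uvr8 without UV-B, or 2 or 3 of uvr8 with UV-B (adjusted p = 0.0596 to 0.180). It was also lost with RLE scaling (adjusted p = 0.0644), without the count filter (adjusted p = 0.0647) and with only the 12 libraries (adjusted p = 0.318). Beside this difference, the UV-B effect in WT was 0.08 ± 0.13, and the effect in WT minus uvr8 was 0.40, not called (adjusted p = 0.234).

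Set against WT, the UV-B effect was lower in co for 232 genes and higher for 6 (1.75% of genes tested), and the WT effect was higher than that of uvr8 for 723 genes and lower for 133 (6.29%). The calls of co against WT fell to 128 without replicate 2 of co with UV-B and to 114 without replicate 3 of WT without UV-B. These comparisons share libraries with that of co and uvr8, so no overlap is given. Over the 77 genes, the effect in co minus WT ran from -2.70 to 0.51, with a median of -1.28 and 3 of 77 above 0, and the effect in WT minus uvr8 ran from 0.40 to 7.51, with a median of 2.77. Among named genes outside the list of PSII renewal, the effect in co was lower than in WT for ZDS1 (-1.41 ± 0.18, adjusted p = 0.000281), PDS1 (-1.76 ± 0.29, adjusted p = 0.00209) and aCRY (-1.10 ± 0.20, adjusted p = 0.00394). It was also lower for GPX3 (-2.06 ± 0.44, adjusted p = 0.0167), a call lost without replicate 2 of co with UV-B, 3 of WT without UV-B, or 1 of WT with UV-B (adjusted p = 0.0626 to 0.0666), and for LHCB7 (-1.54 ± 0.32, adjusted p = 0.0146), lost without replicate 3 of WT without UV-B (adjusted p = 0.0622). That of ELI1 (-1.50 ± 0.36, adjusted p = 0.0333) was lost without replicate 2 or 3 of co without UV-B, 2 or 3 of co with UV-B, 2 or 3 of WT without UV-B, or 1 or 3 of WT with UV-B (adjusted p = 0.0502 to 0.122). For Cre08.g384650 and Cre17.g731050 the smaller effect in co was not called (-2.26 ± 0.82, adjusted p = 0.271, and -1.44 ± 0.46, adjusted p = 0.173); each was called without replicate 2 of WT without UV-B (adjusted p = 0.00777 and 0.0138).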

How the data were processed

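The values are raw counts of reads per gene, deposited by the authors in 1 table without any normalization. The submitters' processing notes name STAR 2.7.10b, bcl2fastq 2.20.0, edgeR 3.42.4 and HTSeq 0.11.3 without saying what each did. Per the file headers, identifiers end in v6.1. How strand and reads of several matches were counted is not given in the sources used here, so near-identical copies (PSBS1 and PSBS2, LHCSR3A and LHCSR3B, HSP22E and HSP22F, the LHCBM genes) and antisense partners are uncertain.

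Groups came from the sample titles. Of 14621 genes, 126 at 0 in every library and those under the limits of filterByExpr (a count of at least 10, a total of at least 15) were left out. Counts were scaled by TMM (factors 0.927 to 1.20 in the 12 libraries), and all 24 libraries were fitted with 1 mean per group in R 4.3.3 with edgeR 4.0.16 and limma 3.58.1, which lets all 8 groups share 1 estimate of the spread. Contrasts were tested with the quasi-likelihood F test, two-sided, with Benjamini-Hochberg adjustment over 13613 genes and a threshold of 0.05. The SE was taken as the absolute log2 change over the root of the F value. The procedure was first tested on simulated data. Alternatives were RLE scaling, no count filter, the 12 libraries alone, a block for the replicate number, DESeq2 1.42.0, omission of single libraries or of whole replicate numbers, and separate fits of WT with hy5 and of co with uvr8. For the comparisons with WT and the genes raised in WT, these alternatives were chosen after seeing the data.

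The genes, lists and comparison were chosen with earlier results of these data known. Named were all members of the UV-B signalling, qE and antenna-like lists, in the remaining lists up to 4 genes ranked by adjusted p in co against uvr8, and the 10 genes with the largest called differences at a mean of 1 CPM or more, of which at most 2 without a listed name are printed each way. RBD1 and Cre10.g453050 are exceptions. Loci of 151 list genes were taken from the literature, all 151 occur in the RefSeq table (assembly v5.5, 0 symbols, 13245 genes of the count table matched), and 141 were tested. Not analysed here were ELI3, HLI1, DEG1A, PSB27, PSB28, LPA1, HCF173, HCF244, CHYB1, LCYE1, DHAR1, COP5, LHCB4, PSBR, PSBW, PSAG, PSAI, HSP22A, HSP22C, HSP101, CYCD1 and UROS. Coordinates and sequences are not printed, since no genome was used here.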

Additional observations from a re-analysis of the deposited data

Results flagged for a closer look

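The UV-B effect differed between co and uvr8 in 77 genes, by a test of the difference itself (edgeR's quasi-likelihood F test over 13613 genes). Among named genes it was higher in co for COP1 by 1.72, SPA1 by 1.65, LHCSR1 by 8.02, FTSH1 by 1.44, FTSH2 by 1.30, HCF136 by 1.49, RBD1 by 1.24, TEF5 by 1.50, GPX3 by 2.26 and aCRY by 0.91 on the log2 scale. The 3 unnamed loci, of which 2 were chosen by the size of their change, were higher in co by 4.30 (Cre08.g384650), 2.89 (Cre17.g731050) and 0.82 (Cre10.g453050).

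The UV-B effect also differed between co and WT, by the same kind of test, for 13 named genes. On the log2 scale the effect in co minus that in WT was -1.36 for SPA1, -7.20 for PSBS1, -1.50 for ELI1, -1.36 for FTSH2, -1.41 for HCF136, -1.19 for FTSH1, -1.93 for TEF5 and -1.54 for RBD1. It was -1.41 for ZDS1, -1.76 for PDS1, -2.06 for GPX3, -1.10 for aCRY and -1.54 for LHCB7. No group held 4 or more libraries, so no search for single outlying libraries was made.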

How the results depend on the processing

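With 3 libraries a group, counts of calls moved with single libraries. Of the 77 genes called in co against uvr8, 24 were called in all 12 omissions of 1 library and 30 in 6 or more. All 77 kept their sign in the 12 omissions, which is no separate support, since the same libraries chose the genes. The count of 77 was 60 with RLE scaling, 51 without the count filter, 29 with the 12 libraries alone, 135 in DESeq2 and 0 to 133 with a library or replicate number left out. Of those also raised in WT (76), 29 were called with the 12 libraries alone, 29 with separate fits of these and of WT with hy5 (added after seeing the data), 130 in DESeq2 and 0 to 125 with omissions. With omissions, counts were 0 to 771 for UV-B in co (main value 234, DESeq2 360), 0 to 1581 for UV-B in uvr8 (main value 0, DESeq2 14) and 531 to 3081 for UV-B in WT (main value 2215). They were 108 to 821 for co against uvr8 with UV-B (main value 689, DESeq2 1079) and 20 to 1279 without UV-B (main value 836, DESeq2 1425, the 12 libraries alone 436). They were 224 to 1387 for WT against uvr8 (main value 856) and 0 to 221 for co against WT (main value 238, DESeq2 411). Of 1398 values of named genes under an alternative, 1276 kept their side of the threshold, 102 lost and 20 gained the call. Most of the 70 named genes were not called in the main fit, so the count of 1276 says little about the calls. All 102 losses fell on called genes, from 2 of 20 alternatives (FTSH1, FTSH2, HCF136 and Cre17.g731050) to 16 of 20 (aCRY). Of called values 0 changed sign, while 19 values of 10 genes without a call did. The causes were not tested.

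The replicate numbers were not treated as pairing the samples. Deviations from the group means of equal numbers correlated at a lowest r of -0.0287 for number 1, 0.403 for number 2 and -0.249 for number 3, these negative values lying between treatments. Between co and uvr8 of the same treatment, r was 0.760, 0.656 and 0.406 with UV-B and 0.662, 0.677 and 0.208 without, and 8 of 12 libraries correlated best with their own number, a hint from the data and not the design. With the replicate number as a block, 135 genes were called in co against uvr8 (134 of them raised in WT), 468 for UV-B in co, 0 in uvr8, 3872 in WT, 1672 and 2462 for co against uvr8 with and without UV-B, 2003 for WT against uvr8 and 801 for co against WT. The block also called LHL4 (adjusted p = 0.0150), ELI1 (0.0172), GPX5 (0.00692), VTC2 (0.0232), ZDS1 (0.0273) and PDS1 (0.0335) in co against uvr8.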
